A study of Mus musculus with 24 samples.

Results

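Interleukin-4 response genes of macrophages were followed across monocyte and macrophage populations sorted from the lungs of healthy and tumour-bearing mice. The 8 genes were Il4ra, Egr2, Mrc1, Mgl2, Clec10a, Retnla, Ccl24 and Tgm2, taken by gene symbol from a table of 37979 genes. Each symbol had 1 row in that table, and all 8 genes passed the filter on low values that left 17156 genes for testing. The 24 libraries came from C57BL/6 male mice aged 10 to 16 weeks, 3 libraries to each of 8 groups, and each library held cells pooled from 3 to 5 mice. The labels state that each population was isolated in 3 separate experiments. Tumour-bearing mice had LLC-Luc cells, a Lewis lung carcinoma line carrying luciferase, placed with Matrigel into the left lung lobe, and that lobe was taken 2 or 3 weeks later. Naive mice, written N, received no injection, and all of their lung lobes were used, so naive and tumour samples also differ in the lobes they came from. MacA cells were sorted as SiglecF+ CD11c+ and taken from naive mice (MacA-N) and at 2 weeks (MacA-2wk). The other gates were all CD11b+ and Ly6G-. MacB1 cells were CD64 low and CD11c+ (MacB1-N, naive only), and MacB2 cells were CD64 intermediate and CD11c- (MacB2-N, MacB2-2wk and MacB2-3wk). MacB3 cells were CD64 high and CD11c+, and were sorted from tumour-bearing lungs only (MacB3-2wk and MacB3-3wk). All MacA libraries were run on sequencing lane 1, whereas replicates 1, 2 and 3 of every MacB group were on lanes 2, 3 and 7, so a difference between MacA and MacB cells cannot be told apart from a difference between lanes.

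Interleukin-4 and interleukin-13 signal through receptors built on the interleukin-4 receptor alpha chain, encoded by Il4ra. This chain pairs with the common gamma chain (Il2rg) or with the interleukin-13 receptor alpha 1 chain (Il13ra1). Janus kinases bound to these chains activate the transcription factor STAT6, which enters the nucleus and switches on a set of genes by which alternatively activated macrophages are recognised. Egr2 is a zinc-finger transcription factor induced downstream of STAT6. Mrc1 (the mannose receptor CD206), Mgl2 and Clec10a (galactose-type lectins, CD301b and CD301a) are surface lectins, Retnla encodes the secreted protein RELM-alpha, Ccl24 encodes the chemokine eotaxin-2, and Tgm2 encodes the protein-crosslinking enzyme tissue transglutaminase.

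In GENCODE M21 on GRCm38, the protein-coding genes lie at chr7:125552120-125579474 (Il4ra), chr10:67535475-67542188 (Egr2), chr2:14229392-14332057 (Mrc1) and chr16:48842551-48844461 (Retnla) on the plus strand. Ccl24 (chr5:135569937-135573049) and Tgm2 (chr2:158116402-158146436) are on the minus strand. Of the 8 genes, 5 had promoter windows in the RefSeq-derived sequence table for GRCm38.p6. These windows, 9 in all, run from 250 bases before to 50 bases after the start of the gene and belong to Retnla, Mrc1, Mgl2, Il4ra and Egr2. They were searched for TTCNNNNGAA, the spacing that STAT6 is known to prefer, for TTCNNNGAA, the spacing common to other STAT proteins, and for TTGCNNAA, a C/EBP-like element searched on both strands (the first 2 motifs read the same on both). The Retnla window held 1 TTCNNNNGAA match and 1 TTGCNNAA match, and none of the 3 motifs was found in the windows of the other 4 genes. Among all 32851 promoter windows, 6.95% held TTCNNNNGAA, 8.30% held TTCNNNGAA, 10.8% held TTGCNNAA, and 0.840% held both of the motifs found at Retnla. The stretch below is shown because it carries both matches, in capitals, 1 base apart. It covers chr16:48842401-48842550 on the plus strand, the 150 bases just before the GENCODE start of Retnla at 48842551; the RefSeq start lies 58 bases further downstream. A match of letters is a description of the sequence and was not tested for binding.

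Retnla: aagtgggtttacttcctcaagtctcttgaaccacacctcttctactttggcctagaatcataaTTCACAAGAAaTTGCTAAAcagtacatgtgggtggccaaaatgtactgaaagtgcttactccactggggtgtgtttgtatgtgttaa

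Mgl2 and Clec10a are neighbouring paralogs on chromosome 11, at 70130329-70137550 and 70156197-70170834 on the plus strand (GRCm38, GENCODE M21), and parts of their transcripts are the same. Over 905 aligned coding bases they were 87.7% identical, with 1 run of 183 identical bases. Of the 50-base windows in the Mgl2 transcript, 16.5% also occurred in a transcript of another gene, chiefly Clec10a, and 10.6% of those in the Clec10a transcript occurred in Mgl2. The other 6 genes shared no 50-base window with any other gene's transcript. No source used here gives the rule by which reads matching both genes were assigned, so the level of the lower gene of the pair is uncertain where the other is high. The stretch around the shared run is shown for both genes (213 coding bases, introns left out, within chr11:70136322-70136714 for Mgl2 and chr11:70169807-70170204 for Clec10a), with the 4 differing bases in capitals.

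Mgl2: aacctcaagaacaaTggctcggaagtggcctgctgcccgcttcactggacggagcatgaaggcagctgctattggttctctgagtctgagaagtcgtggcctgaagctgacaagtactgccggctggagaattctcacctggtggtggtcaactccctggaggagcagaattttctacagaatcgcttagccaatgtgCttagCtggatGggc

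Clec10a: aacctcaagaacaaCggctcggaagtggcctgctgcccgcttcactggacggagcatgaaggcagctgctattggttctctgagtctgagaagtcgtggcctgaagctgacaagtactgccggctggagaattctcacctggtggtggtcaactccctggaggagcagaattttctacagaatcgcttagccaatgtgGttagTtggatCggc

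Transcripts of the antigens used for sorting followed the gates. Siglecf lay between 125 and 303 FPKM (fragments scaled to transcript length and to the mapped total, the unit in which the deposited values were read) in the 6 MacA libraries and at 8.77 or below in the 18 MacB libraries. Fcgr1, which encodes CD64, averaged 9.54 in MacB1-N, 73.2 in MacB2-N and 181 in MacB3-2wk, and Ly6g was listed at 0 in every library. Itgax, which encodes CD11c, lay between 50.01 and 227 in the groups sorted as CD11c+ and between 5.54 and 13.2 in MacB2, and Itgam, which encodes CD11b, lay between 166 and 366 in MacB and at 24.5 or below in MacA. Epx, Prg2 and Prg3, granule genes that define eosinophils, were listed at 0 in all 24 libraries. The full list of 7 eosinophil markers summed to between 5.38 and 7.23 FPKM in MacA-N and between 5.17 and 16.1 in MacA-2wk. In MacB libraries the sum was at most 6.59 (MacB2-3wk). Of the 2 markers tested, 1 was called higher and 1 lower in MacB2-N against MacA-N. Protein-coding genes held between 10.4% and 27.8% of the summed FPKM of a library. Fragment counts were not among the values used, and the relative depth estimated from the steps between low values ran from 0.521 (MacB2-2wk replicate 3) to 1 (MacA-N replicate 1). Replicate 3 of MacA-2wk stood apart from its group: markers of fibroblasts (9 genes) summed to 267 FPKM there and to 33.6 and 29.9 in the other 2 libraries, and endothelial markers (10 genes) to 282 against 74.1 and 70.6.

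The 8 genes did not share a single order of levels across the populations. Mean FPKM was highest in MacB1-N for 3 genes (Retnla, Mgl2 and Clec10a), in MacA-N for 2 (Mrc1 and Egr2), in MacB3-2wk for 2 (Ccl24 and Tgm2) and in MacB3-3wk for Il4ra. Group means, as log2(FPKM + 1), spanned 6.88 for Mgl2, 6.70 for Retnla, 5.27 for Mrc1, 5.04 for Ccl24, 4.27 for Egr2 and 4.19 for Clec10a. Each of these 6 spans was wider than that of at least 93.3% of the genes tested, whose median span was 1.39. Tgm2 spanned 1.67 and Il4ra 1.09, wider than 62.2% and 32.5% of the genes tested. In these bulk libraries a lower level in a group cannot separate fewer cells that express a gene from less RNA per cell.

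**Figure D1:**
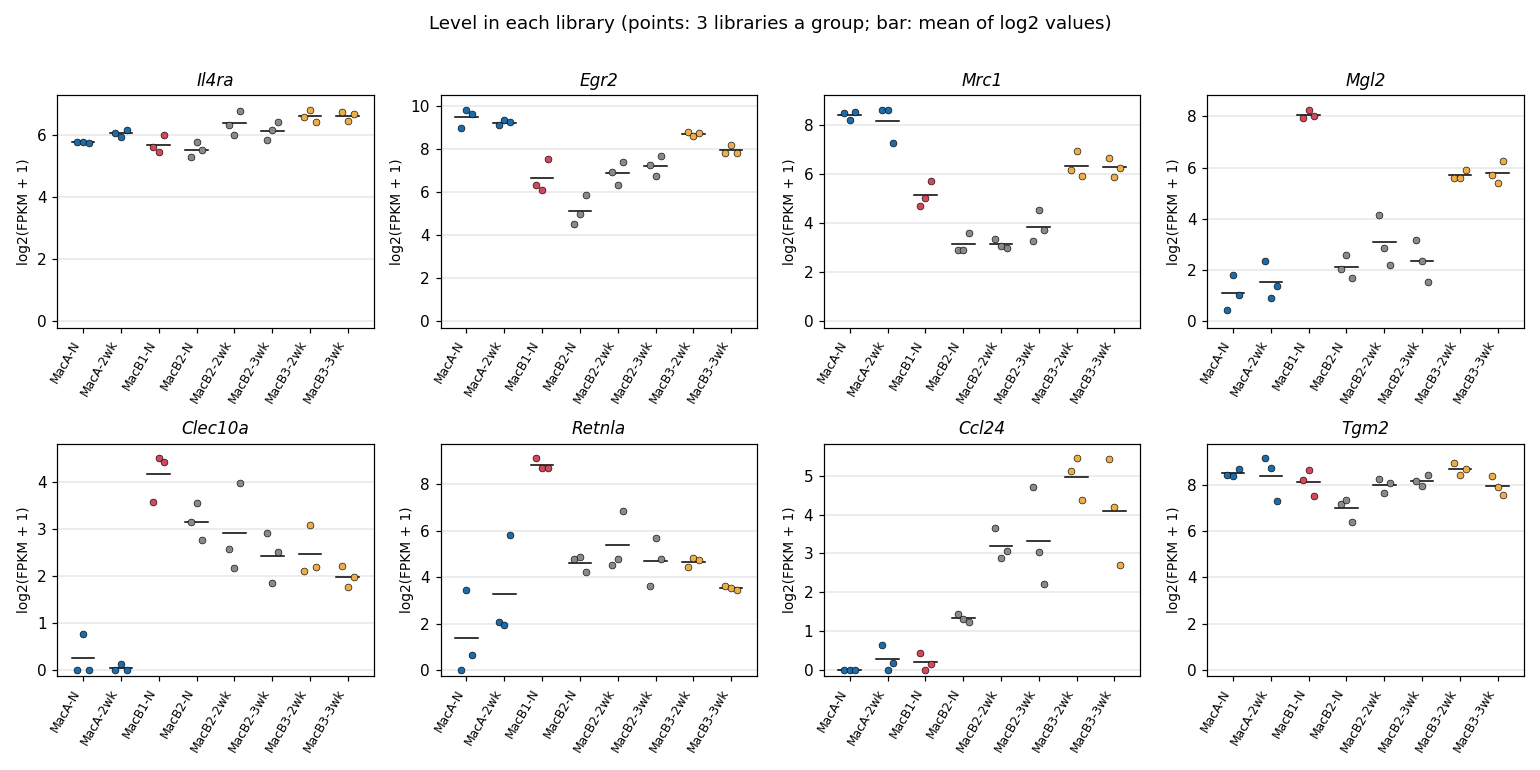
Level of each gene in each of the 24 libraries, as log2(FPKM + 1) on the vertical axis, with the 8 sorted groups on the horizontal axis; points are libraries (3 a group), bars are group means of the log2 values, and colours mark MacA (blue), MacB1 (red), MacB2 (grey) and MacB3 (yellow). Retnla and Mgl2 stand highest in MacB1-N, Mrc1 and Egr2 in MacA, and Ccl24 in MacB3, while Il4ra and Tgm2 span less than the other 6 genes.

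Il4ra, the receptor chain, was present in every library, from 38.2 to 112 FPKM. It read 54.0, 53.6 and 52.6 FPKM in MacA-N, 48.0, 42.7 and 63.3 in MacB1-N, and 38.2, 53.5 and 44.5 in MacB2-N, so the naive populations overlapped. In tumour-bearing lungs it read 79.6, 63.4 and 110 in MacB2-2wk and 55.8, 71.4 and 84.4 in MacB2-3wk, all above every MacB2-N library. The MacB3 libraries lay between 84.2 and 112 and overlapped MacB2-2wk. MacA-2wk, at 66.5, 60.2 and 70.1, lay above all 3 MacA-N libraries. From the highest group mean (98.0 ± 10.3, SD, n = 3, MacB3-3wk) to the lowest (45.4 ± 7.68, SD, n = 3, MacB2-N) the ratio was 2.16, and among neighbouring groups in this order only MacA-2wk and MacA-N did not overlap.

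Egr2, the transcription factor, was highest in MacA cells, where it read 501, 892 and 779 FPKM in naive and 546, 633 and 593 in tumour-bearing lungs. The MacB3 groups came next, with 440, 381 and 418 at 2 weeks and 225, 287 and 224 at 3 weeks. MacB2 cells carried 21.5, 30.9 and 57.1 in naive lungs, 120, 77.9 and 166 at 2 weeks and 149, 104 and 199 at 3 weeks. MacA, MacB3-2wk, MacB3-3wk and the MacB2 tumour groups formed a descending series whose steps did not overlap, whereas the MacB2 tumour groups and MacB1-N (79.5, 67.9 and 185) overlapped one another. MacB2-N was lowest, below every MacB1-N library.

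Among the lectins, Mrc1 was again highest in MacA cells, at 357, 291 and 370 FPKM in naive lungs. At 2 weeks MacA cells read 394, 391 and 153, the low value being replicate 3, the library with the raised fibroblast and endothelial markers. MacB3 cells read 70.3, 122 and 59.3 at 2 weeks and 99.9, 58.7 and 76.2 at 3 weeks, below every MacA library and above every MacB1-N library (25.1, 31.5 and 51.8). All 9 MacB2 libraries lay at or below 22.3, with 6.46, 6.55 and 11.1 in naive lungs. Siglecf, the MacA sorting marker, read between 0.190 and 5.26 in the MacB3 libraries. Within MacB1-N and within MacB2-N, replicate 3 had the highest Mrc1 and the highest Egr2, and also the highest Siglecf (8.77 and 1.44), Mertk (12.7 and 6.97) and Chil3 (362 and 457), 3 transcripts that were abundant in MacA cells. Their part in the Mrc1 and Egr2 values of those libraries was not tested.

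Mgl2 had a different order. It read 244, 305 and 255 FPKM in MacB1-N, then 46.8, 48.0 and 59.7 in MacB3-2wk and 50.8, 41.3 and 75.4 in MacB3-3wk. Every other library was at or below 16.99, and the MacA libraries were at or below 4.07. MacB1-N, MacB3 and the remaining groups were therefore 3 levels without overlap, and the 2 MacB3 time points overlapped. Clec10a was at most 21.8 in any library. It read 11.01, 21.8 and 20.6 in MacB1-N, 7.90, 10.7 and 5.85 in MacB2-N and 5.01, 3.53 and 14.7 in MacB2-2wk, where replicate 3 lay above every MacB2-N library and above MacB1-N replicate 1. In MacA cells 4 of 6 libraries were listed at 0 and the highest was 0.689.

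The balance of the paralogs differed between the MacB populations sorted as CD11c+ and those sorted as CD11c-. Mgl2 FPKM divided by Clec10a FPKM was 22.2, 14.03 and 12.4 in MacB1-N and between 6.34 and 25.3 in the 6 MacB3 libraries, all CD11c+. In MacB2-N, which is CD11c-, it was 0.392, 0.470 and 0.376, so Clec10a exceeded Mgl2 in all 3 naive libraries. The 6 MacB2 libraries from tumour-bearing lungs were spread from 0.245 to 3.39 and did not reach the MacB3 range. The ratio is printed as a description, since reads of the shared stretches could belong to either gene.

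**Figure D2:**
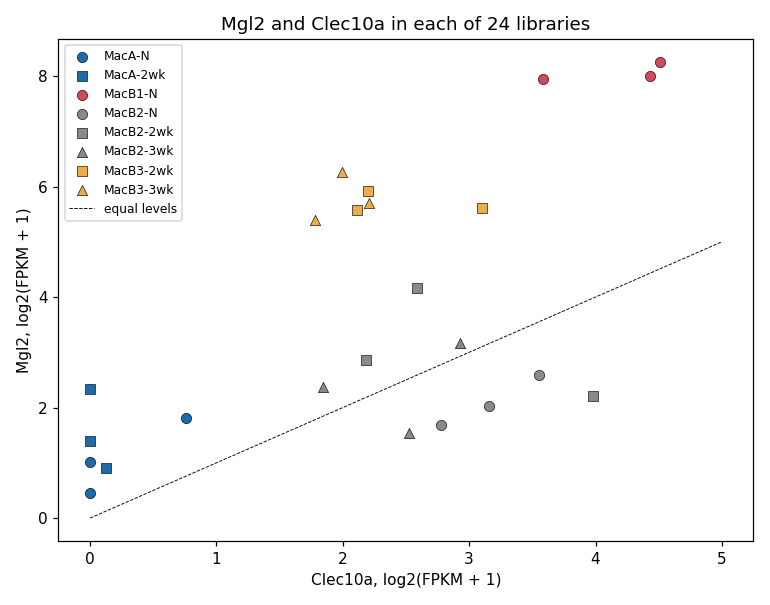
Mgl2 (vertical axis) against Clec10a (horizontal axis), both as log2(FPKM + 1), in each of the 24 libraries; colour marks the population and shape the time (circle naive, square 2 weeks, triangle 3 weeks), and the dashed line marks equal levels. MacB1-N and MacB3 libraries lie far above the line, and the 3 MacB2-N libraries lie below it.

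Retnla, the secreted RELM-alpha gene, was concentrated in MacB1-N, at 552, 419 and 413 FPKM. No other library reached more than 115, and MacB2-N read 26.7, 27.8 and 17.5. MacB3 cells, which shared high Mgl2 with MacB1-N, read 20.96, 26.98 and 25.4 at 2 weeks and 11.3, 10.4 and 9.85 at 3 weeks. MacA-N read 0, 9.78 and 0.586. Below MacB1-N the group means ran from 54.5 ± 52.3 (SD, n = 3) in MacB2-2wk to 3.46 ± 5.48 (SD, n = 3) in MacA-N, and neighbouring groups overlapped except MacB3-3wk and MacA-N. Single libraries set several of these means. MacA-2wk read 3.15, 2.81 and 55.8, the last being the library with raised fibroblast and endothelial markers, and MacB2-2wk read 21.9, 26.8 and 115, the last being the library with the lowest relative depth. The part of those features in the Retnla values was not tested.

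Ccl24, the eotaxin-2 gene, was above 1 FPKM in MacB2 and MacB3 libraries only. It was listed at 0 in all 3 MacA-N libraries, and MacB1-N read 0.348, 0 and 0.112 FPKM. MacB2-N read 1.74, 1.49 and 1.35, and all 6 MacB2 libraries from tumour-bearing lungs lay above these, at 11.7, 6.36 and 7.28 after 2 weeks and 25.3, 7.26 and 3.64 after 3 weeks. The highest levels were in MacB3-2wk (33.9, 42.5 and 19.6), and MacB3-3wk was spread from 5.46 to 42.0. The spread between the 3-week libraries was wide in both populations, and replicate 1 was the highest in each. Tgm2, the transglutaminase gene, was abundant in every library, from 82.9 to 562 FPKM. Its lowest group was MacB2-N (144, 163 and 82.9), below all MacB3-3wk libraries, and the other 7 groups overlapped along the order of their means.

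Differences between groups were tested with limma on log2(FPKM + 1), fitted to all tested genes in all 24 libraries, and a gene was called where the Benjamini-Hochberg adjusted p was under 0.05 and the change was at least 2-fold. A fitted difference on this scale understates the change of genes near 0. Among naive populations, MacB1-N against MacA-N called 5 of the 8 genes, 3 higher and 2 lower, beside 23.7% of all tested genes (15% higher and 8.71% lower). Mgl2 was higher in MacB1-N by 6.98 (SE 0.48, adjusted p 2.26e-09), Retnla by 7.47 (SE 0.90, adjusted p 2.53e-06) and Clec10a by 3.92 (SE 0.41, adjusted p 4.50e-07). Mrc1 fell by 3.25 (SE 0.38, adjusted p 1.94e-06), a 9.38-fold difference of group means, and Egr2 fell by 2.80 (SE 0.37, adjusted p 8.75e-06). The same comparison in MacB2-N called 5 genes, 2 higher and 3 lower, beside 20.9% of all tested genes (10.7% higher and 10.2% lower). Mrc1 and Egr2 were lower than in MacA-N by 42.3-fold and 19.8-fold in group means (log2 differences of -5.27, SE 0.38, and -4.34, SE 0.37), and Tgm2 was lower by 2.81-fold (adjusted p 0.00502). Clec10a was higher by 2.91 (SE 0.41) and Retnla by 3.25 (SE 0.90, adjusted p 0.00968). The Retnla call was lost without MacA-N replicate 1 and in the fit of these 2 groups alone, and the highest adjusted p over its 12 alternatives was 0.0763. Ccl24, listed at 0 in MacA-N, was not called (1.33, SE 0.56, adjusted p 0.0840), but was called higher in MacB2-N with the replicate block (adjusted p 0.0350), with a pseudocount of 0.1 and in the fit of these 2 groups alone, with adjusted p from 0.000476 to 0.169 over 12 alternatives. Called higher in MacB1-N than MacA-N were 8 of 11 dendritic cell and 9 of 10 endothelial markers. So were 8 of 9 fibroblast and 7 of 10 T, NK and B cell markers. Of these lists, only 1 dendritic cell marker was lower. Of 11 epithelial markers, 3 were higher and 3 lower. In MacB2-N 5 dendritic cell and 2 T, NK and B cell markers were higher, and 1 dendritic cell and 3 epithelial markers were lower. The part of such cells in these calls was not tested.

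**Figure D3:**
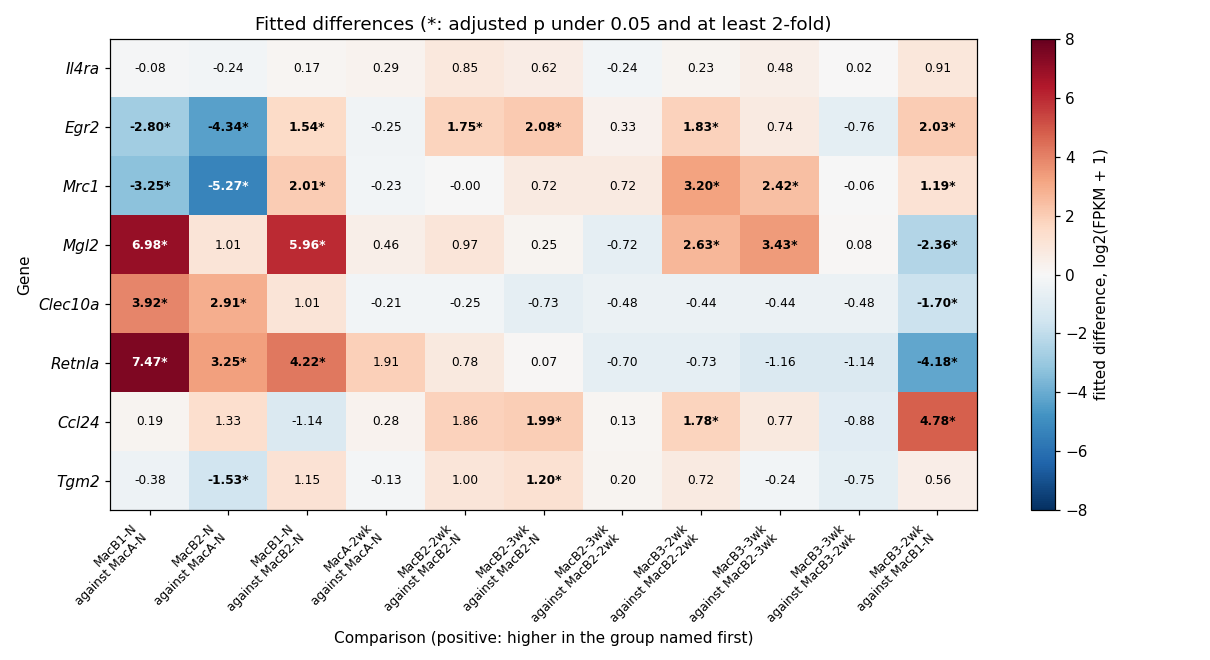
Fitted difference of each gene (rows) in each of the 11 comparisons (columns) as log2(FPKM + 1), with red for higher and blue for lower in the group named first; an asterisk marks an adjusted p under 0.05 with at least a 2-fold change. Calls were made in both directions between naive populations, and all calls for tumour-bearing against naive MacB2 cells were higher.

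Between the naive MacB populations, MacB1-N against MacB2-N called 4 genes, all higher in MacB1-N, beside 5.21% of all tested genes in either direction and 3.5% in this one. Mgl2 was 77.8-fold higher in group means (log2 difference 5.96, SE 0.48, adjusted p 2.07e-07) and Retnla 19.2-fold higher (4.22, SE 0.90, adjusted p 0.00570). Mrc1 was 4.50-fold higher (2.01, SE 0.38, adjusted p 0.00228) and Egr2 3.03-fold higher (1.54, SE 0.37, adjusted p 0.0144). The groups did not overlap for any of these 4 genes, so all 4 were higher in each of the 3 lanes. Within-lane log2 differences were 5.66 to 6.32 for Mgl2, 3.87 to 4.49 for Retnla, 1.81 to 2.13 for Mrc1 and 1.11 to 1.84 for Egr2. The Egr2 call was lost under 4 of 12 alternatives, among them leaving out MacB1-N replicate 3, and the Mrc1 call under the fit of these 2 groups alone. Clec10a was not called between these groups (1.01, SE 0.41, adjusted p 0.160). Markers of other cells were read in the same libraries. Of the 11 dendritic cell markers tested, 2 were called higher and 1 lower in MacB1-N, with a median log2 difference of 1.09. None of the 10 endothelial markers was called, with a median of 1.31. Ccr7 and Cd209a, both on the dendritic cell list, averaged 81.9 and 174 FPKM in MacB1-N against 5.66 and 20.4 in MacB2-N. Both genes enter the sums given next and make up much of the MacB1-N sum. That sum therefore does not show the whole list as raised. Cd209a also stands on the list of interleukin-4-induced genes. Dendritic cell markers (13 genes, 10 of them at 1 FPKM or more in each group) summed to between 317 and 441 FPKM in MacB1-N and between 141 and 185 in MacB2-N; none was at 0 in all 3 MacB1-N libraries. The same genes summed to between 66.0 and 72.3 in MacA-N. Endothelial markers summed to between 481 and 621 in MacB1-N, and to between 141 and 498 in MacB2-N. The part of dendritic or endothelial cells in the Retnla, Mgl2 and Clec10a levels was not tested.

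In MacA cells, tumour-bearing lungs at 2 weeks gave no call among the 8 genes, beside 0.787% of all tested genes, and none was called when any of the 6 libraries was left out. MacB2 cells at 2 weeks gave 1 call, Egr2, beside 1.88% of all tested genes in either direction and 1.66% higher. Its level was 3.32-fold that of MacB2-N (log2 difference 1.75, SE 0.37, adjusted p 0.0160), and 1.31 to 2.42 within lanes, but the call was lost under 5 of 12 alternatives, in which the adjusted p reached 0.266. Il4ra passed the adjusted p threshold at under 2-fold (0.85, SE 0.20, adjusted p 0.0291), where 2.17% of all genes passed at any fold. Ccl24 and Mgl2 were higher than MacB2-N in all 3 lanes, by 1.56 to 2.21 and 0.26 to 2.14 on the log2 scale, and were not called. The same held for Tgm2 (0.27 to 1.67) and Il4ra (0.24 to 1.28). With the replicate number, which in MacB cells is also the lane, as a block, the call of Ccl24 was gained (1.86, adjusted p 0.0405, against 0.0954 without the block). At 3 weeks MacB2 cells gave 3 calls, all higher than MacB2-N, beside 14.7% of all tested genes in either direction and 9.67% higher. Egr2 rose 4.13-fold (2.08, SE 0.37, adjusted p 0.000483) and was higher by 1.72 to 2.74 within lanes. Ccl24 rose 7.91-fold in group means (1.99, SE 0.56, adjusted p 0.0151), a call lost without MacB2-3wk replicate 1 and in the fit of the 2 groups alone. Tgm2 rose 2.24-fold (1.20, SE 0.39, adjusted p 0.0330), a call lost under 5 of 12 alternatives. Within lanes Ccl24 was higher by 0.98 to 3.27 and Tgm2 by 0.57 to 2.03. Il4ra again passed the adjusted p threshold at under 2-fold (0.62, SE 0.20, adjusted p 0.0344), beside 20.6% of genes at any fold. Fibroblast markers summed to between 466 and 873 FPKM in MacB2-3wk, between 131 and 175 in MacB2-2wk and between 25.8 and 68.4 in MacB2-N. Neutrophil markers (10 genes) summed to between 497 and 1273 in MacB2-3wk, between 529 and 808 in MacB2-2wk and between 231 and 271 in MacB2-N. Of the 8 neutrophil markers tested, 1 was called higher and none lower at 2 weeks, and 2 higher and 1 lower at 3 weeks. The part of these cells in the calls at either time was not tested. Over the 8 genes, the median log2 difference from MacB2-N was 0.91 at 2 weeks and 0.67 at 3 weeks, beside 0.03 and 0 over all tested genes. None of the 8 genes was called between the MacB2 time points, beside 4.34% of all tested genes.

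The 2-week changes of MacB2 and MacA cells were also tested against each other, and for none of the 8 genes did the difference of changes reach an adjusted p under 0.05, beside 0.221% of all tested genes. With 3 libraries a group, this does not show that the populations responded alike.

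MacB3 cells were compared with MacB2 cells from tumour-bearing lungs at the same week; the labels do not say whether both came from the same pools of mice. At 2 weeks 4 genes were called, all higher in MacB3, beside 7.36% of all tested genes in either direction and 3.15% higher. Mrc1 was 10.7-fold higher (log2 difference 3.20, SE 0.38, adjusted p 2.19e-05), Mgl2 5.75-fold (2.63, SE 0.48, adjusted p 0.00142), Egr2 3.41-fold (1.83, SE 0.37, adjusted p 0.00338) and Ccl24 3.79-fold (1.78, SE 0.56, adjusted p 0.0482). Within lanes the differences were 2.82 to 3.86 for Mrc1, 1.41 to 3.72 for Mgl2, 1.33 to 2.28 for Egr2 and 1.32 to 2.56 for Ccl24. The Ccl24 call was lost under 9 of 12 alternatives, including each omission of a library, and the Mgl2 call in the fit of the 2 groups alone (adjusted p 0.0638). At 3 weeks Mrc1 was 5.41-fold higher (2.42, SE 0.38, adjusted p 0.000781) and Mgl2 11.97-fold higher (3.43, SE 0.48, adjusted p 0.000252) in MacB3, the only 2 calls, beside 2.64% of all tested genes in either direction and 1.61% higher. Both calls were kept under all 12 alternatives, and within lanes the differences were 1.36 to 3.37 for Mrc1 and 2.53 to 4.72 for Mgl2. The median log2 difference of the 8 genes between MacB3 and MacB2 was 1.25 at 2 weeks and 0.61 at 3 weeks, beside -0.08 and -0.04 over all tested genes. Retnla and Clec10a, whose group means, like that of Mgl2, were highest in MacB1-N, were not called between MacB3 and MacB2 at either time. Dendritic cell markers summed to between 109 and 128 FPKM in MacB3 and between 108 and 169 in MacB2 at 2 weeks, and to between 83.8 and 107 and between 56.3 and 72.3 at 3 weeks. Of the 11 tested, 5 were called lower and none higher in MacB3 at 2 weeks, with a median log2 difference of -0.42. At 3 weeks 2 were lower and 1 higher, with a median of -0.30. Fibroblast markers summed lower in MacB3 at both times. The sums were 25.0 to 57.3 against 131 to 175 at 2 weeks and 187 to 303 against 466 to 873 at 3 weeks. Endothelial markers also summed lower, at 70.0 to 116 against 181 to 566 and 39.3 to 51.7 against 65.3 to 90.1. Epithelial markers (11 genes) summed to between 168 and 596 against 485 to 2474 at 2 weeks and between 290 and 331 against 626 to 890 at 3 weeks. Without Scgb1a1, the club cell secretory gene, their sums were 46.5 to 61.1 against 99.3 to 335 and 46.2 to 60.5 against 96.4 to 134. Of the markers tested, 2 of 9 fibroblast, 4 of 10 endothelial and 2 of 11 epithelial markers were called lower at 2 weeks. None of these was called at 3 weeks, and none was called higher at either time. The part of these cells in the 4 genes called was not tested.

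MacB3 cells showed no call between 2 and 3 weeks, beside 0.315% of all tested genes. Libraries of the 2 times did not overlap for Egr2, Tgm2 and Retnla. Group means at 2 and 3 weeks were 413 ± 29.9 and 245 ± 36.2 FPKM (SD, n = 3) for Egr2. They were 417 ± 79.6 and 251 ± 72.5 for Tgm2, and 24.5 ± 3.13 and 10.5 ± 0.708 for Retnla. The adjusted p of these genes in limma was 0.603, 0.632 and 0.865. Means were close for Mrc1 (83.9 and 78.3), Mgl2 (51.5 and 55.8) and Il4ra (96.9 and 98.0). Clec10a (4.83 and 3.01) and Ccl24 (32.0 and 21.5) had lower means at 3 weeks, with overlapping libraries. The median log2 difference of the 8 genes was -0.62, beside 0.01 over all tested genes. No gene of all those tested had a change from 2 to 3 weeks that differed between MacB3 and MacB2 at an adjusted p under 0.05 in limma, with 1121 of 17156 at an unadjusted p under 0.05.

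The CD11c+ cells without SiglecF selection in tumour-bearing and naive lungs were set side by side as MacB3-2wk against MacB1-N, populations that also differ in the CD64 gate. This comparison called 6 genes, 3 higher and 3 lower, beside 21.5% of all tested genes (8.32% higher and 13.1% lower). Ccl24 (log2 difference 4.78, SE 0.56, adjusted p 3.56e-06), Egr2 (2.03, SE 0.37, adjusted p 0.000423) and Mrc1 (1.19, SE 0.38, adjusted p 0.0243) were higher in MacB3-2wk, and Il4ra passed the adjusted p threshold at under 2-fold (0.91, SE 0.20, adjusted p 0.00197), beside 29.9% of genes at any fold. Retnla was lower by 18.9-fold in group means (-4.18, SE 0.90, adjusted p 0.00166), Mgl2 by 5.21-fold (-2.36, SE 0.48, adjusted p 0.00113) and Clec10a by 3.68-fold (-1.70, SE 0.41, adjusted p 0.00399). The groups did not overlap for any of the 6 genes called, so each difference had the same direction in all 3 lanes. The Mrc1 call was lost under 4 of 12 alternatives. Of the 11 dendritic cell markers tested, 7 were lower and 1 higher in MacB3-2wk, and all 10 endothelial markers were lower. Of the 11 epithelial markers 8 were lower and none higher, with sums of 168 to 596 FPKM in MacB3-2wk against 3644 to 13025 in MacB1-N, and 46.5 to 61.1 against 341 to 901 without Scgb1a1. Their part in the lower Retnla, Mgl2 and Clec10a was not tested.

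The genes that supply and relay the interleukin-4 signal were read from lists of the pathway. The ligand genes were near the floor, with Il4 at most 0.878 FPKM and Il13 at most 0.608 in any library, and the decoy receptor gene Il13ra2 at most 0.531, so none of the 3 entered the tests. The partner chains of Il4ra were both present. Il2rg averaged 74.8 FPKM in MacA-N, 226 in MacB1-N, 180 in MacB2-N and 236 in MacB3-2wk, and was called higher in MacB1-N (1.58, SE 0.17, adjusted p 9.39e-07) and MacB2-N (1.25, SE 0.17, adjusted p 1.62e-05) than in MacA-N. Il13ra1 stood between 17.9 and 23.4 in the MacB3 libraries and between 26.8 and 51.2 in all others, and was not called in any comparison. It passed the adjusted p threshold at under 2-fold in several. It was lower in MacB3-2wk than MacB2-2wk (-0.89, SE 0.13, adjusted p 0.000184) and in MacB2-3wk than MacB2-N (-0.59, SE 0.13, adjusted p 0.00288). Against MacA-N it was higher in MacB2-N (0.55, SE 0.13, adjusted p 0.00310). Il2rg was likewise lower in MacB2-3wk than MacB2-N (-0.71, SE 0.17, adjusted p 0.00610), where 20.6% of all genes passed at any fold. Stat6 lay between 67.1 and 202 in all libraries and was not called in any comparison. Against MacA-N it passed the adjusted p threshold at under 2-fold in MacB1-N (0.78, SE 0.24, adjusted p 0.0178) and MacB2-N (0.65, SE 0.24, adjusted p 0.0491). Socs1, a feedback inhibitor of this pathway and of other cytokine pathways, rose in MacB2 cells at 2 weeks (2.00, SE 0.23, adjusted p 0.000124), from 4.89, 7.65 and 6.71 FPKM to 25.4, 30.4 and 29.01, and stayed above every MacB2-N library at 3 weeks (16.5, 15.6 and 23.8). Jak2 was higher in MacB1-N than in MacB2-N (1.41, SE 0.20, adjusted p 0.000116).

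**Figure D4:**
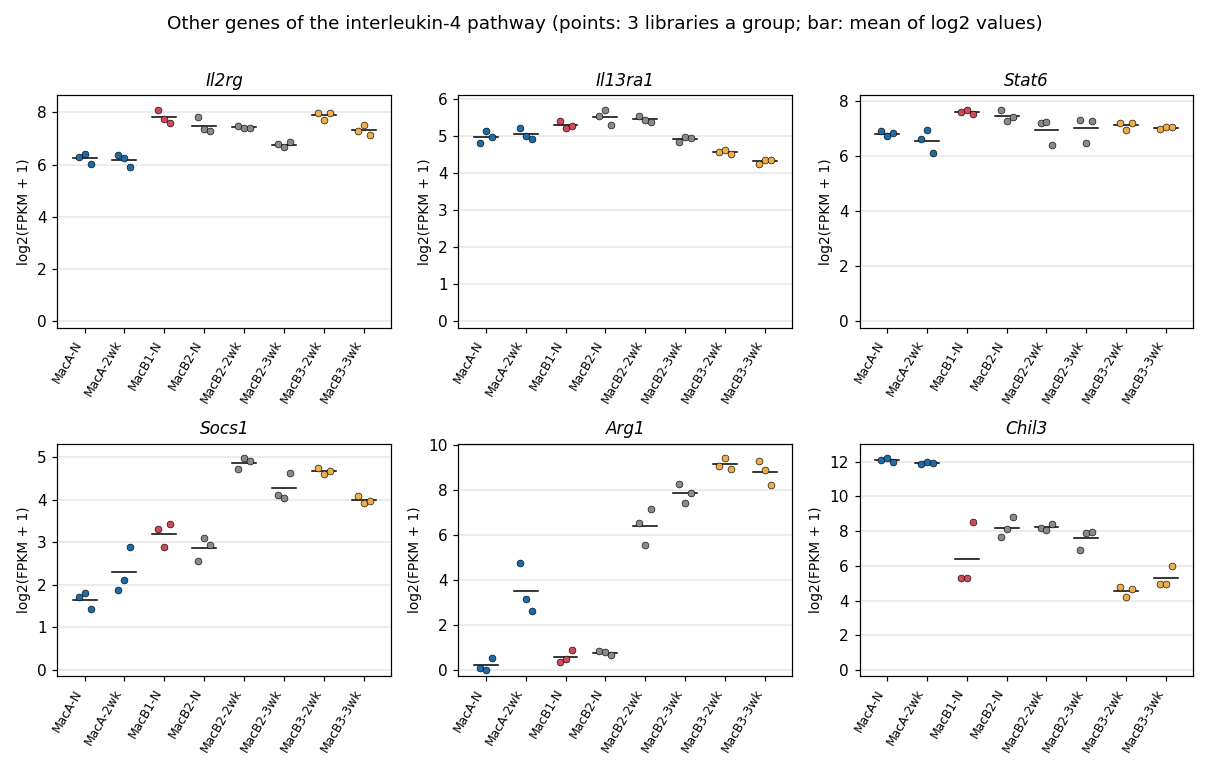
Level of 6 further genes of the interleukin-4 pathway in each library, as log2(FPKM + 1) on the vertical axis, by group on the horizontal axis; points are libraries (3 a group), bars are means of the log2 values, and colours mark the populations as for the 8 genes. Arg1 stands highest in MacB3 and near 0 in the naive groups, Chil3 highest in MacA, and Stat6 and Il13ra1 span less than the other 4 genes.

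Over the 46 tested pathway genes other than the 8, MacB1-N against MacB2-N called 12 higher and 2 lower, beside 5.21% of all tested genes in either direction, with a median log2 difference of 0.33 beside 0.09 over all genes. Ccl22 (7.52, SE 0.85) and Ccl17 (7.04, SE 0.52), chemokine genes that interleukin-4 induces and that dendritic cells also express, and Cd209a (3.02, SE 0.34), a lectin gene that also stands on the dendritic cell list, were among those higher, and the coagulation factor gene F13a1 was lower (-3.82, SE 0.26). For MacB2 cells at 2 weeks 5 of the 46 were higher and none lower (1.88% of all genes were called), with a median of 0.23 beside 0.03, and at 3 weeks 8 were higher and 7 lower (14.7% of all genes), with a median of 0.24 beside 0. Arg1, the arginase gene, went from 0.807, 0.763 and 0.574 FPKM in MacB2-N to 93.2, 46.4 and 140 at 2 weeks (5.65, SE 0.44, adjusted p 1.58e-06) and 304, 174 and 233 at 3 weeks. It also rose in MacA cells at 2 weeks (3.30, SE 0.44, adjusted p 0.000456), where it and the prostaglandin synthase gene Ptgs1 (2.55, SE 0.35) were the 2 genes called of the 46, beside 0.787% of all genes, and none of the 8 was called. Il1rn, the interleukin-1 receptor antagonist gene, rose in MacB2 cells by 2.79 (SE 0.31) at 2 weeks and 2.71 (SE 0.31) at 3 weeks. The transcription factor gene Myc rose there by 1.60 (SE 0.39, adjusted p 0.0377) and 3.46 (SE 0.39, adjusted p 4.81e-06), and was higher at 3 weeks than at 2 (1.87, SE 0.39). Ptgs1 rose by 2.24 (SE 0.35) at 3 weeks, also higher than at 2 weeks (1.503, SE 0.35), whereas Cd209a was lower at 3 weeks than at 2 (-1.91, SE 0.34). Between these times 2 of the 46 were higher and 2 lower, beside 4.34% of all genes, with a median of -0.20 beside 0. MacB3-2wk was above MacB2-2wk in Arg1 (2.72, SE 0.44, adjusted p 0.000443) and in the oxysterol enzyme gene Ch25h (3.16, SE 0.36), and below it in the chitinase-like gene Chil3 (-3.69, SE 0.58, adjusted p 0.000345) and in Cd209a (-2.51, SE 0.34), with 6 of the 46 higher and 4 lower beside 7.36% of all genes, and a median of 0.08 beside -0.08. At 3 weeks 2 were higher, Ch25h (1.98, SE 0.36) and the cationic amino acid transporter gene Slc7a2 (1.23, SE 0.31), and 2 lower, among them Chil3 (-2.29, SE 0.58), beside 2.64% of all genes and with a median of 0.01 beside -0.04. None of the 46 was called between the MacB3 times, beside 0.315% of all genes. In MacB3-2wk against MacB1-N 11 were higher and 12 lower, beside 21.5% of all genes, with a median of -0.20 beside -0.11; Arg1 was higher (8.56, SE 0.44), and Cd209a (-5.58, SE 0.34), Ccl22 (-4.66, SE 0.85) and Ccl17 (-4.09, SE 0.52) were lower. Chil3 was between 3776 and 4652 in MacA libraries and at most 457 in MacB libraries. Of the 14 transcription factor genes tested other than Egr2, 1 (Myc) rose and 4 fell in MacB2 cells at 3 weeks, among the latter Pparg, a nuclear receptor gene tied to the same response (-1.73, SE 0.32, adjusted p 0.000733). Against MacA-N, the 46 genes gave 14 higher and 10 lower in MacB1-N, beside 23.7% of all genes, and 12 higher and 15 lower in MacB2-N, beside 20.9%, with medians of 0.44 beside 0.12 and 0.35 beside 0.03. Cd209a (6.83, SE 0.34) and Ccl17 (5.84, SE 0.52) were higher in MacB1-N, and F13a1 (6.83, SE 0.26) in MacB2-N. Lower in both were Chil3 (-5.70 and -3.88, SE 0.58 each) and Slc7a2 (-4.75 and -5.80, SE 0.31 each), and the scavenger receptor gene Olr1 was lower in MacB2-N (-4.68, SE 0.47).

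Across the 24 libraries the 8 genes fell into pairs of like and unlike pattern, given here as Pearson's r of log2(FPKM + 1) and as a description, since libraries of a group share their gate. Mrc1 and Egr2 had an r of 0.86, Retnla and Clec10a 0.78, Il4ra and Ccl24 0.70, Retnla and Mgl2 0.63, and Mgl2 and Clec10a 0.61. Clec10a ran against Mrc1 (-0.74) and Egr2 (-0.71), and Retnla was near 0 with Il4ra (-0.05) and with Ccl24 (-0.02).

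**Figure D5:**
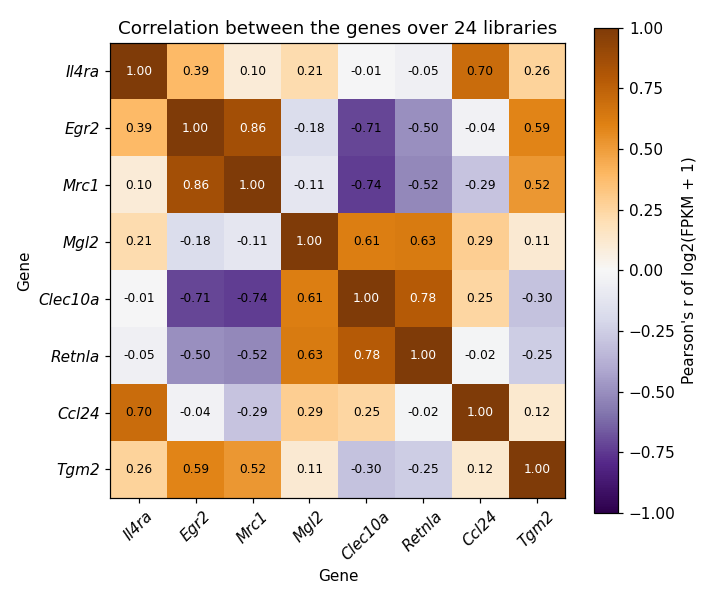
Pearson's r between each pair of the 8 genes over the 24 libraries, on log2(FPKM + 1), with genes on both axes and the value in each cell (orange positive, purple negative). Mrc1 with Egr2 (0.86) and Retnla with Clec10a (0.78) are the highest pairs, and Mrc1 with Clec10a (-0.74) is the lowest.

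Among 13209 protein-coding genes tested, the 3 nearest to each gene other than Tgm2 are given by the same r over 24 libraries. Retnla was most like Ccr7 (0.87), a chemokine receptor gene of migrating dendritic cells that read 81.1, 80.7 and 83.9 FPKM in MacB1-N and at most 13.1 elsewhere, then Spata13 (0.87) and Lrba (0.86). Mgl2 was most like Il2ra (0.92), H2-Eb1 (0.91) and Zbtb18 (0.90). H2-Eb1, a class II antigen presentation gene, averaged 2236 FPKM in naive MacB1 cells and 1918 and 1282 in MacB3 cells at 2 and 3 weeks, and at most 354 in the other groups. Clec10a was nearest to St3gal5 (0.92), Pvrl1 (0.92) and Stat4 (0.92), and Mrc1 to Dhrs3 (0.97), Pald1 (0.96) and B3gnt7 (0.95). Egr2 was nearest to Lrp12 (0.95), Cttnbp2nl (0.95) and Vat1 (0.94), and Ccl24 to the chemokine gene Ccl2 (0.92), Tm4sf19 (0.92) and the platelet factor gene Pf4 (0.91). Pf4 averaged 806 and 951 FPKM in the MacB3 groups and 125 at most in the others. Il4ra was nearest to Hist1h2bk (0.88), Smim15 (0.87) and Ppa1 (0.87).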

How the data were processed

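Sorted lung cells were profiled by RNA sequencing in 24 libraries. Per the submitters' processing notes, FastQC, TopHat2, Cufflinks 2.0.2 and the mm10 build were used, without roles; no source used here states the annotation or strand handling. The deposited values were read as FPKM computed by the authors, since Cufflinks is named and the file headers name no unit. Fragment counts were not used, so no counting interval is given. Deposited positions overlapped GENCODE M21 for 4218 of 32917 matched genes; gene positions were therefore taken from GENCODE M21 by Ensembl ID.

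Values were used without rescaling as log2(FPKM + 1). Genes with a group mean of at least 1 FPKM were tested (17156 of 37979; 14133 were 0 in every library). One limma 3.58.1 fit in R 4.3.3 over 8 groups, with 16 residual degrees of freedom, gave 11 comparisons and 2 differences of changes, with moderated tests, two-sided, and Benjamini-Hochberg adjustment over all tested genes. The scripts were tested on simulated data. Alternatives were a pseudocount of 0.1, no filter, quantile normalization, upper-quartile scaling, a fit of the compared groups only, a replicate block, and leaving out each library.

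The 8 genes and all lists were chosen with earlier results of these data known. Of 52 listed pathway genes, 51 were in the table. Text names every ligand and receptor chain, Stat6, in each comparison up to 4 further called pathway genes with the largest change and at least 5 FPKM, the 3 protein-coding genes most like each of the 8, and, in any comparison, Arg1, Chil3, Ccl17, Ccl22 and Pparg. The genes most like Tgm2 are not reported here. Jak2, Socs1 at 3 weeks, Mertk and the ratio of Mgl2 to Clec10a were picked once values were known. The design text gives both MacB3 groups the same name, and sample titles were followed.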

Additional observations from a re-analysis of the deposited data

How the results depend on the processing

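Differences of the 8 genes that passed the adjusted p threshold or were called in any fit kept their direction under all 12 alternatives tried for each. Counts of the 8 genes called moved past 1.5 times as follows. In MacB2 cells at 2 weeks the count was 1, 2 with the replicate block, 0 in the fit of the compared groups only, and 0 to 2 when a library was left out. At 3 weeks it was 3, 1 in the fit of the compared groups only, and 1 to 3 when a library was left out (1 without MacB2-3wk replicate 1). For MacB3 against MacB2 at 2 weeks it was 4, and 2 in the fit of the compared groups only. The other counts of the 8 genes stayed within 1.5 times.

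Counts over all tested genes moved more in the fit of the compared groups only, which has fewer residual degrees of freedom. There, 268 genes were called for MacB1-N against MacB2-N (893 in the fit of all groups), 4 for MacA at 2 weeks (135), 37 for MacB2 at 2 weeks (323), 1680 for MacB2 at 3 weeks (2524), 208 between the MacB2 times (744), 648 for MacB3 against MacB2 at 2 weeks (1263), 26 between the MacB3 times (54), 13 for the difference of the 2-week changes (38) and 5 for the difference of the week changes (0). A pseudocount of 0.1 gave 238 for MacA at 2 weeks, 493 between the MacB2 times, 19 between the MacB3 times and 89 for the difference of the 2-week changes. Without the filter the 2 differences of changes gave 24 and 2, and quantile normalization gave 27 between the MacB3 times. Leaving out a library gave 606 to 1393 for MacB1-N against MacB2-N, 87 to 244 for MacA at 2 weeks, 136 to 292 for MacB2 at 2 weeks, 449 to 753 between the MacB2 times, 297 to 384 for MacB3 against MacB2 at 3 weeks (453), 11 to 38 between the MacB3 times, 17 to 57 for the difference of the 2-week changes and 0 to 3 for that of the week changes. The cause of these shifts was not tested. Quantile normalization moved the share of higher calls from 63.2% to 47.2% for MacB1-N against MacA-N, from 67.3% to 50.1% for MacB1-N against MacB2-N, from 87.9% to 74.6% and from 65.7% to 52.7% for MacB2 at 2 and 3 weeks, from 42.8% to 56.2% for MacB3 against MacB2 at 2 weeks, from 88.9% to 77.8% between the MacB3 times and from 38.8% to 51.8% for MacB3-2wk against MacB1-N.

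In MacB groups the replicate number is also the sequencing lane, whereas MacA libraries share 1 lane; no label ties a number to shared mice. Over the 45 same-numbered pairs within MacB, the median correlation of deviations from the group means was 0.00119, against -0.00226 for differently numbered pairs. The highest of the 45 was 0.210, the 1 pair over 0.1. Over all 84 same-numbered pairs the median was 0.00626 against -0.00126, with 3 pairs over 0.1. A median near 0 does not exclude single pairs that deviated together. In both MacB1-N and MacB2-N, replicate 3 was highest in Mrc1, Egr2, Siglecf, Mertk and Chil3. With the replicate block the calls of Ccl24 in MacB2-N against MacA-N and in MacB2 at 2 weeks were gained, and no other call of the 8 genes changed. With the replicate block the difference of the 2-week changes gave 24 genes over all tested. FPKM hold no counts, so values near 0, such as Ccl24 and Clec10a in MacA cells, carry no stated counting error.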
